A study of Homo sapiens with 12 samples.

Results

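CPI203, an inhibitor of the bromodomains of BET proteins, was given alone at 0.01 µM for 6 h to 3 human multiple myeloma cell lines, and transcripts were set against those of control cells of the same line. The comparison rested on 6 of the 12 arrays of the series, 3 with CPI203 and 3 controls, chosen by their treatment label and paired by cell line (ARP1, JJN3, RPMI-8226). All are lines of multiple myeloma, a cancer of plasma cells. The other 6 arrays held the same lines under 5 µM lenalidomide and 0.05 µM dexamethasone, with CPI203 added (Combo, 3 arrays) or without it (LenDex, 3 arrays), and served to see how the same drug effect looked on that background. They also entered the model that gives every SE and p below. The labels do not say what control cells received in place of the drug. Each array held total RNA of 1 culture (150 ng labelled), so a group had n = 3 with 1 array per line, and no line was repeated within a treatment. The series asked how CPI203 adds to lenalidomide through Ikaros and MYC signalling, and the arrays without lenalidomide give the part of that question that concerns CPI203 by itself.

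BET proteins hold on to acetylated lysines of histone tails through paired bromodomains and bring the elongation kinase P-TEFb to promoters and enhancers. P-TEFb, made of CDK9 and a cyclin T, phosphorylates paused RNA polymerase II and its pausing factors, and most of it is kept inactive by HEXIM proteins in the 7SK RNA particle. BET inhibitors displace BET proteins from chromatin. In myeloma cells they are known for lowering MYC, whose locus often lies beside strong lymphoid enhancers, and for raising HEXIM1, SERPINI1 and histone transcripts, which are used as markers of drug exposure.

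Levels are the deposited log2 values of 1 probe set per gene, and a difference of 1 on this scale is a doubling. Differences are CPI203 minus control within a line, and a mean over the 3 lines is given with its standard error (SE) from a limma model fitted to all 12 arrays with line and treatment as terms. Of 18239 genes with a probe set that names 1 gene, 15173 reached a log2 level of 5 on at least 3 arrays and were tested. Adjusted p-values are limma's, two-sided and by Benjamini-Hochberg over those 15173 genes. Array medians lay between 5.30 and 5.37. RMA gives jointly processed arrays the same distribution of values, so a shift of all transcripts at once would not show. Line is a term in the model, so SE and p rest on the residual left after line and treatment over all 12 arrays, moderated across genes. That residual pools all treatments and is not the spread of the CPI203 difference between lines alone. The number of arrays limits the precision.

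The defining markers did not bear out all labels. The plasma cell proteoglycan gene SDC1 stood at a log2 level of 12.26 with CPI203 and 12.23 in control in ARP1, but at 5.23 and 5.79 in JJN3 and at 4.96 and 5.38 in RPMI-8226. The B cell gene MS4A1 (CD20) was high where SDC1 was low, at 5.18 with CPI203 and 4.70 in control in ARP1, 11.71 and 11.89 in JJN3, and 11.71 and 12.06 in RPMI-8226. MAF, an oncogene that the JJN3 and RPMI-8226 lines are known to carry in translocated form, was at 11.43 with CPI203 and 11.45 in control in ARP1 and no higher than 6.47 on the other 4 arrays. Across genes the arrays labelled JJN3 and RPMI-8226 correlated at Pearson r of 0.969 to 0.981, whereas ARP1 arrays reached 0.882 to 0.887 with those of JJN3 and 0.873 to 0.880 with those of RPMI-8226. Genes are not independent replicates, and whether these 2 labels stand for separate cells was not tested. The line names below are therefore the labels of the arrays.

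The JJN3 control array stood apart from its CPI203 partner in transcripts of immunoglobulin and erythroid factor genes. IGKC, an immunoglobulin light chain gene, was at 5.35 with CPI203 and 9.32 in control in JJN3, and IGHA1 at 5.72 and 9.84. The erythroid factor genes KLF1 (5.99 with CPI203, 8.34 in control), TAL1 (6.12 and 7.80) and LMO2 (5.36 and 8.68) ran the same way in JJN3, while HBB (5.59 and 5.56) and ALAS2 (4.92 and 5.34) did not. These 5 higher genes were picked after their values were seen. Marker lists of other cells gave log2 summed levels of 7.27 to 8.23 with CPI203 and 7.41 to 8.31 in control for 5 of 5 T cell genes, 6.75 to 7.23 and 6.72 to 7.07 for 3 of 5 monocyte and macrophage genes, and at least 6.96 with CPI203 and 6.92 to 7.06 in control for 4 of 5 fibroblast genes. The sums were 7.48 to 9.89 and 7.50 to 9.83 for 5 of 5 epithelial genes and 8.70 to 13.20 and 7.48 to 13.31 for 3 of 6 erythroid genes, where HBG1 carried the sum. None of these lists had a member at 0, which log2 array values do not reach. The list counts of 2 or more below are given without the JJN3 control array where its loss moved them by more than 1.5 times, and for the histone and ribosome production lists. Its part in the results beyond those counts was not tested.

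With CPI203 alone, 1 gene passed the threshold of an adjusted p under 0.05, which is 0.00659% of the genes tested. It was H3C4, which encodes an H3 histone that packs newly made DNA. H3C4 stood at log2 levels of 8.39 for ARP1, 9.82 for JJN3 and 7.90 for RPMI-8226 with CPI203, against 6.94, 7.37 and 5.87 in the control cells. All 3 CPI203 arrays were above all 3 control arrays, although the lines differed in level by more than 1 unit within each treatment. H3C4 rose by 1.44 for ARP1, 2.46 for JJN3 and 2.02 for RPMI-8226, with a mean of 1.97 ± 0.18 (SE), 3.93-fold, and an adjusted p of 0.0128. The call rested on the model of all 12 arrays with line as a block. The adjusted p was 0.23 when the 6 arrays of the comparison were fitted alone, 1 with no block for line and 0.41 after averaging JJN3 with RPMI-8226, with a difference of 1.84 in that last fit. Nor did the call survive the loss of a JJN3 or RPMI-8226 array. The adjusted p became 0.0635 without the JJN3 and 0.151 without the RPMI-8226 CPI203 array, and 0.0793 without the JJN3 and 0.204 without the RPMI-8226 control array. Without the ARP1 CPI203 array 219 genes passed, without the ARP1 control array 398, and without all ARP1 arrays 1015, of which 502 were higher (3.31%) and 513 lower (3.38%). In RefSeq H3C4 overlaps H2AC7, and the probe set may also pick up other H3 genes. H2AC7 itself stood at 0.68 ± 0.16 (adjusted p = 0.108).

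At an unadjusted p under 0.05, 16.2% of genes differed (2456 of 15173), of which 1061 were higher (6.99%) and 1395 lower (9.19%). These are the background shares for the counts of gene groups below that use all arrays. Leaving out 1 of the 6 arrays gave between 555 and 1441 genes higher and between 866 and 1507 lower, with the lower numbers wherever a JJN3 or RPMI-8226 array was missing. Counts without such an array have a lower background, of 3.66% to 4.69% higher and 5.71% to 7.16% lower. Without an ARP1 array of the comparison it was 7.92% or 9.5% higher and 9.93% or 9.75% lower. Genes higher in all 3 lines made up 17.8% of those tested (2697), and genes lower in all 3 made up 21.6% (3284). A change of at least 2-fold in every line was seen for 3 genes (0.0198%), the histone genes H3C4, H2BC21 and H2AC6, all of them higher, and for 0 genes lower. On average over the lines, 56 genes were at least 2-fold higher (0.369%) and 60 at least 2-fold lower (0.395%).

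The upstream regions of the histone genes with the largest differences are shown next, because histone promoters carry short elements that most promoters lack, together with those of HEXIM1, the P-TEFb inhibitor, and SERTAD1, the gene with the largest difference of all. Each run holds the 235 bases before an annotated transcript start, 5′ to 3′ on the strand of the gene, from RefSeq on GRCh38.p14. Capitals mark 3 short motifs read on both strands, with overlapping matches joined. The TATA motif was searched as TATAAA. The box bound by NF-Y in many promoters was searched as CCAAT. The octamer bound by OCT factors was searched as ATTTGCAT. The H3C4 region is chr6:26197287-26197521 on the minus strand, before the one of its 2 annotated starts that H2AC7 does not share, and lies inside the gene as annotated from the other start.
H3C4: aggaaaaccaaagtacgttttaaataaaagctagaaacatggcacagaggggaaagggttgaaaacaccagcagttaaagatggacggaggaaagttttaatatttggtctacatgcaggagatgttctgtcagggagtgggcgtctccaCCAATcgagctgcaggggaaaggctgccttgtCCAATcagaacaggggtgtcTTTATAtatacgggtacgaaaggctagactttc
The H2BC21 region is chr1:149886683-149886917 on the minus strand and fills the 235 bases up to the neighbouring H2AC20.
H2BC21: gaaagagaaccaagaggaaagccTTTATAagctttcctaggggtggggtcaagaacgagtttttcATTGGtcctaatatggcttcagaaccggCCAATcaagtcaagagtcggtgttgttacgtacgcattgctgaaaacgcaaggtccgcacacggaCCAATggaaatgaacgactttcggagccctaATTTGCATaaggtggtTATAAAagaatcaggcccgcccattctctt
The H2AC6 region is chr6:26123937-26124171 on the plus strand, within the 245 bases between H2AC6 and its neighbour H2BC4.
H2AC6: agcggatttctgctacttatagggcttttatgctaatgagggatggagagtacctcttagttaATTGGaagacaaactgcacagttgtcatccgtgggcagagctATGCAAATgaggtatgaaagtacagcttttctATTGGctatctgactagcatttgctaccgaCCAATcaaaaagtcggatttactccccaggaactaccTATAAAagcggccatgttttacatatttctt
The H2BC11 region is chr6:27132796-27133030 on the minus strand, within the 247 bases between H2BC11 and H2AC11.
H2BC11: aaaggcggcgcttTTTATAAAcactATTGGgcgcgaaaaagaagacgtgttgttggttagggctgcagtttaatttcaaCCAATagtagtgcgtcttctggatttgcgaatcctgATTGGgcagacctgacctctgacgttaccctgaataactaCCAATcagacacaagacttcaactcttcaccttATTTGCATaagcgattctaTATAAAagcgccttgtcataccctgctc
The HEXIM1 region is chr17:45148240-45148474 on the plus strand.
HEXIM1: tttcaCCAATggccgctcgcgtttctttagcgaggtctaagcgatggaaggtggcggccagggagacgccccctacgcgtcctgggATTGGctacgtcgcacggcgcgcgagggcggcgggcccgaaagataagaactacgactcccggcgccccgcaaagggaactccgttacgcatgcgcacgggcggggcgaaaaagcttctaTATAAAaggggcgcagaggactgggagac
The SERTAD1 region is chr19:40425993-40426227 on the minus strand.
SERTAD1: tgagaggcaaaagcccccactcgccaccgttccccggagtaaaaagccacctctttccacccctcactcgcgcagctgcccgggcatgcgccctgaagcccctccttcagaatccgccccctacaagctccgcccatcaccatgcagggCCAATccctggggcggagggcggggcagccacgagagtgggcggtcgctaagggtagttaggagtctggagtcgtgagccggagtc
H2BC21, H2AC6 and H2BC11 each held 1 octamer and H3C4 none. The TATA motif was found in all of the regions shown except that of SERTAD1, and the CCAAT box in every one, from 1 copy before SERTAD1 to 4 before H2BC11. Among 47 upstream regions of replication-dependent histone genes that were tested, 63.8% held the TATA motif, 91.5% the CCAAT box and 48.9% the octamer. Among all 17568 regions of genes tested the shares were 7.05%, 31.8% and 1.31%. A match is a string of letters and says nothing of binding.

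Replication-dependent histone genes, which supply histones to replicating DNA and make transcripts that mostly lack a poly(A) tail, held the 6 smallest p-values among genes higher in all 3 lines. Of 53 genes listed 47 were tested and 3 lay under the level filter. Many of the 47 lay near that filter of 5. Their median level was 5.38 for ARP1, 5.63 for JJN3 and 5.58 for RPMI-8226 with CPI203, against 5.37, 5.39 and 5.21 in control. At an unadjusted p under 0.05, 22 of the 47 were higher and 1 was lower, against background shares of 6.99% and 9.19%, and 32 were higher in all 3 lines. The median difference was 0.23, against -0.01 over all genes tested. By line it was 0.17 for ARP1, 0.28 for JJN3 and 0.44 for RPMI-8226. The count higher was 17 without the JJN3 control array, when the background share was 4.16%, and lay between 16 and 22 whichever of the 6 arrays was left out. Probe sets of this family may share reads of near-identical copies, so the 47 genes are not 47 separate measurements.

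The core histones H2A, H2B and H3 each held a gene with a mean difference near 2 or above. H2B genes made up 9 of the 22, from 16 tested, H2A genes 5, from 10 tested, and H3 genes 5, from 9 tested. H4 genes gave 2, from 8 tested, and H1 genes 1, from 4 tested. H2AC6 stood at 8.81, 8.77 and 7.94 with CPI203 in ARP1, JJN3 and RPMI-8226, against 7.61, 6.34 and 5.03 in control, a mean difference of 2.18 ± 0.32 (adjusted p = 0.0721). H2BC21 stood at 9.30, 8.92 and 7.48, against 7.97, 6.57 and 5.32 in control, a mean difference of 1.95 ± 0.24 (adjusted p = 0.0554). Every line was at least 2-fold higher for both genes. The CPI203 and control levels of H2AC6 did not overlap, and those of H2BC21 did, because the lines differ in level. H2BC11 stood at 10.06, 7.93 and 7.47, against 9.13, 6.07 and 5.15 in control (1.70 ± 0.23, adjusted p = 0.065). H2BC5 stood at 9.38, 9.06 and 8.53, against 8.43, 7.60 and 7.19 in control (1.25 ± 0.15, adjusted p = 0.0554), and its CPI203 arrays were all above its control arrays. The H2BC5 gene was read by 3 probe sets, which gave mean differences of 1.19 to 1.48. For H2BC21 the other probe set gave 0.20.

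Genes that share an upstream region with these were higher as well. H2BC4, the neighbour of H2AC6, stood at 1.05 ± 0.15 (adjusted p = 0.0721), with 1.12 for ARP1, 1.34 for JJN3 and 0.69 for RPMI-8226. H2AC20, the neighbour of H2BC21, stood at 0.88 ± 0.21 (adjusted p = 0.108). H2AC11, the neighbour of H2BC11, stood at 1.08 ± 0.38 (adjusted p = 0.203). Other members with a mean over 1 were H2AC25 at 1.67 (0.21 for ARP1, 1.85 for JJN3 and 2.94 for RPMI-8226), H2AC8 at 1.39, H2BC8 at 1.37 and H2BC12 at 1.15. H4C1 was the member lower at an unadjusted p under 0.05, at -0.24 ± 0.09 (adjusted p = 0.24). Among 9 replacement histone genes, which are made outside S phase too, 3 were higher at an unadjusted p under 0.05 and 0 lower. These were H2AX, which marks DNA breaks once phosphorylated, at 0.58 ± 0.12 (adjusted p = 0.0956), H3-3B at 0.36 ± 0.09 and H2AZ2 at 0.21.

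**Figure D1:**
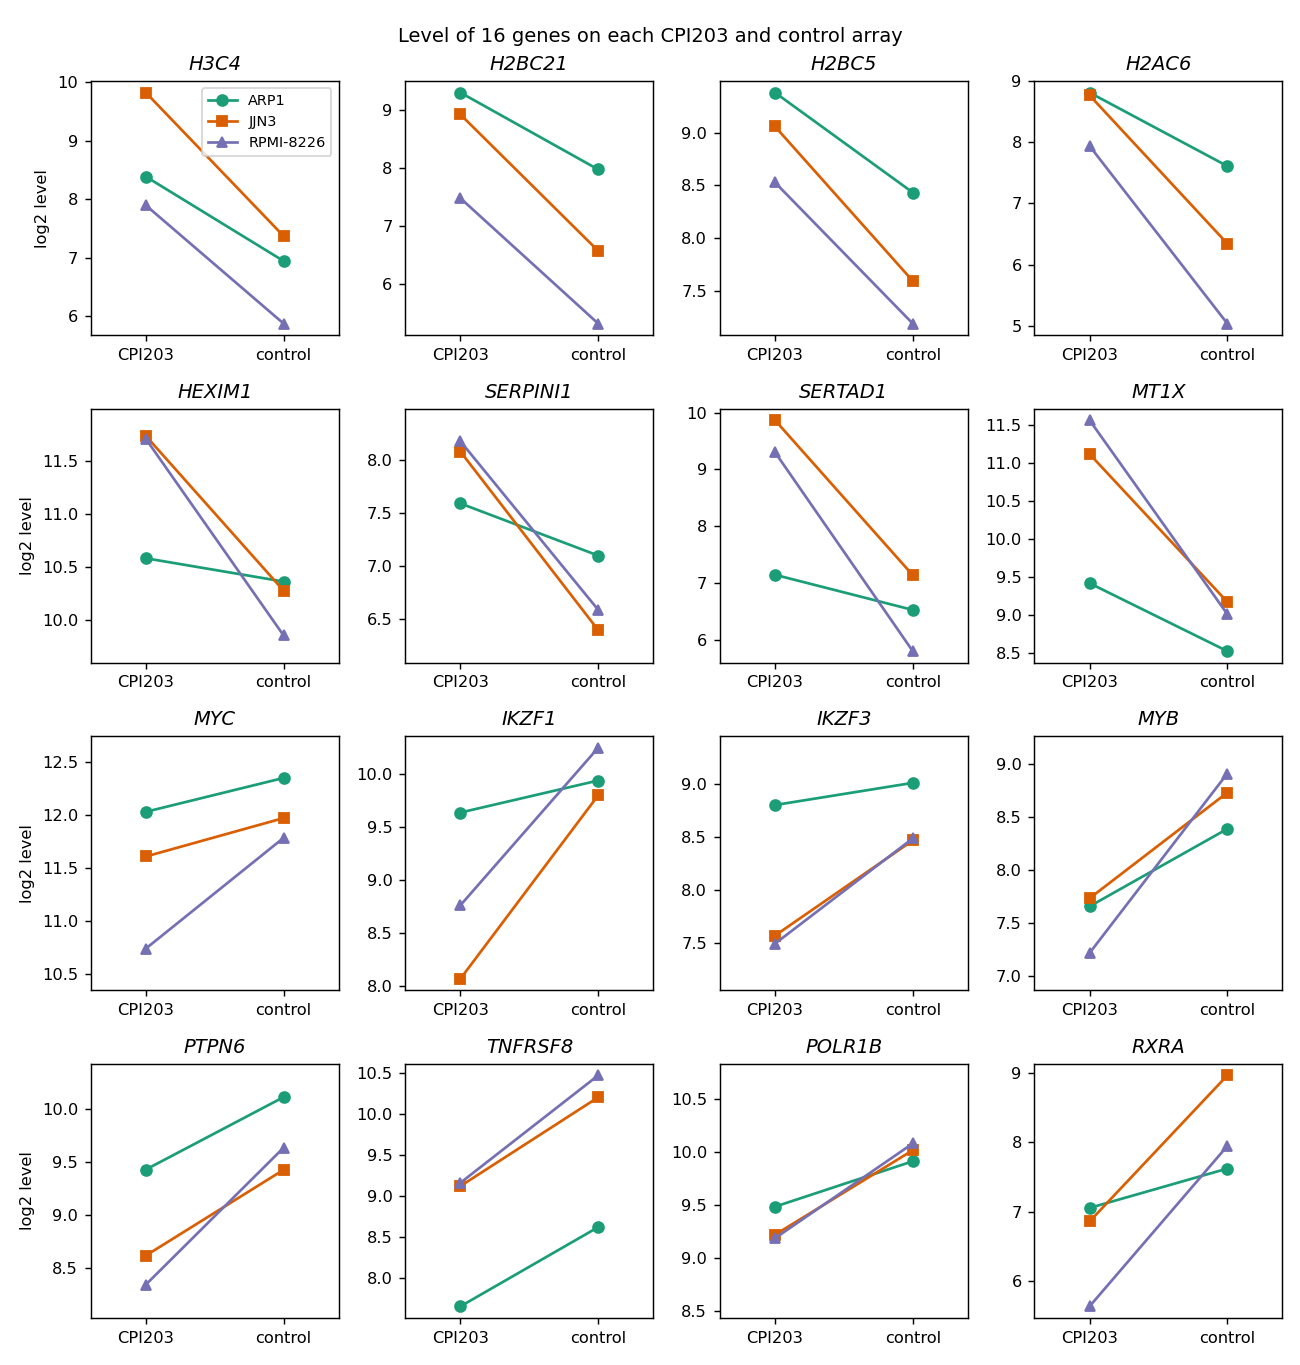
Log2 levels of 16 genes on the CPI203 arrays (left in each panel) and control arrays (right), with 1 point per array and a line joining the arrays of 1 cell line. H3C4, H2BC21, H2BC5 and H2AC6 are higher with CPI203 in all 3 lines, HEXIM1, SERPINI1, SERTAD1 and MT1X are higher most of all in JJN3 and RPMI-8226, and the 8 genes of the lower rows are lower with CPI203 in every line.

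The machinery that BET inhibitors act on gave a mixed picture. Of 15 tested genes of BET proteins, P-TEFb and its partners, 5 were higher and 2 lower at an unadjusted p under 0.05, with a median difference of 0.23. The counts were 3 higher without either RPMI-8226 array and 2 lower whichever array was left out. HEXIM1 stood at 10.58, 11.74 and 11.71 with CPI203 in ARP1, JJN3 and RPMI-8226, against 10.36, 10.28 and 9.85 in control, with a mean difference of 1.18 ± 0.31 (2.27-fold, adjusted p = 0.124). The ARP1 difference was 0.22 and those of JJN3 and RPMI-8226 were 1.46 and 1.86, and all 5 of its probe sets were higher on average, by 1.18 to 1.55. HEXIM2, the paralogue that also inhibits P-TEFb, ran the other way at -0.70 ± 0.20 (adjusted p = 0.146), with -0.13 for ARP1, -0.79 for JJN3 and -1.17 for RPMI-8226. BRD2 stood at 0.66 ± 0.18 (adjusted p = 0.127) and CDK9 at 0.36 ± 0.11 (adjusted p = 0.155), each higher in 3 of 3 lines. AFF1 and AFF4, scaffolds of the super elongation complex, stood at 0.49 and 0.47, and MLLT1 of the same complex at -0.48. Outside this list, POLR2A, the largest subunit of RNA polymerase II, stood at 1.08 ± 0.28 (adjusted p = 0.117), with 0.13 for ARP1, 1.34 for JJN3 and 1.77 for RPMI-8226. Its other probe sets gave means down to 0.17.

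SERPINI1, which encodes neuroserpin and is another marker of BET inhibition, stood at 7.59, 8.08 and 8.18 with CPI203, against 7.10, 6.39 and 6.59 in control. All CPI203 arrays were above all control arrays. The mean difference was 1.26 ± 0.40 (adjusted p = 0.172), and the ARP1 difference (0.49) was under those of JJN3 (1.69) and RPMI-8226 (1.59). The largest mean difference of any gene was that of SERTAD1, a partner of the cell cycle kinase CDK4, which stood at 7.15, 9.87 and 9.30 with CPI203, against 6.53, 7.14 and 5.80 in control. Its mean of 2.28 ± 0.58 (4.86-fold, adjusted p = 0.115) held 0.62 for ARP1, 2.73 for JJN3 and 3.50 for RPMI-8226. DHRS2, IRF7, FGFR1 and DGAT1, also among the 12 largest differences upward, likewise had their smallest difference in ARP1. DHRS2, a short-chain dehydrogenase gene, stood at 1.72 ± 0.41 (0.37, 2.49 and 2.29 in ARP1, JJN3 and RPMI-8226). IRF7, a regulator of type I interferon genes, stood at 1.47 ± 0.41 (0.44, 2.27 and 1.68). FGFR1, a growth factor receptor gene, stood at 1.45 ± 0.27 (0.61, 1.60 and 2.16, adjusted p = 0.0806), and DGAT1, of the last step of triglyceride synthesis, at 1.43 ± 0.31 (0.60, 1.54 and 2.15). The sizes of these 2 differences held only for the probe sets used. The other tested probe sets gave means of 0.17 to 0.47 for FGFR1 and 0.05 for DGAT1.

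**Figure D2:**
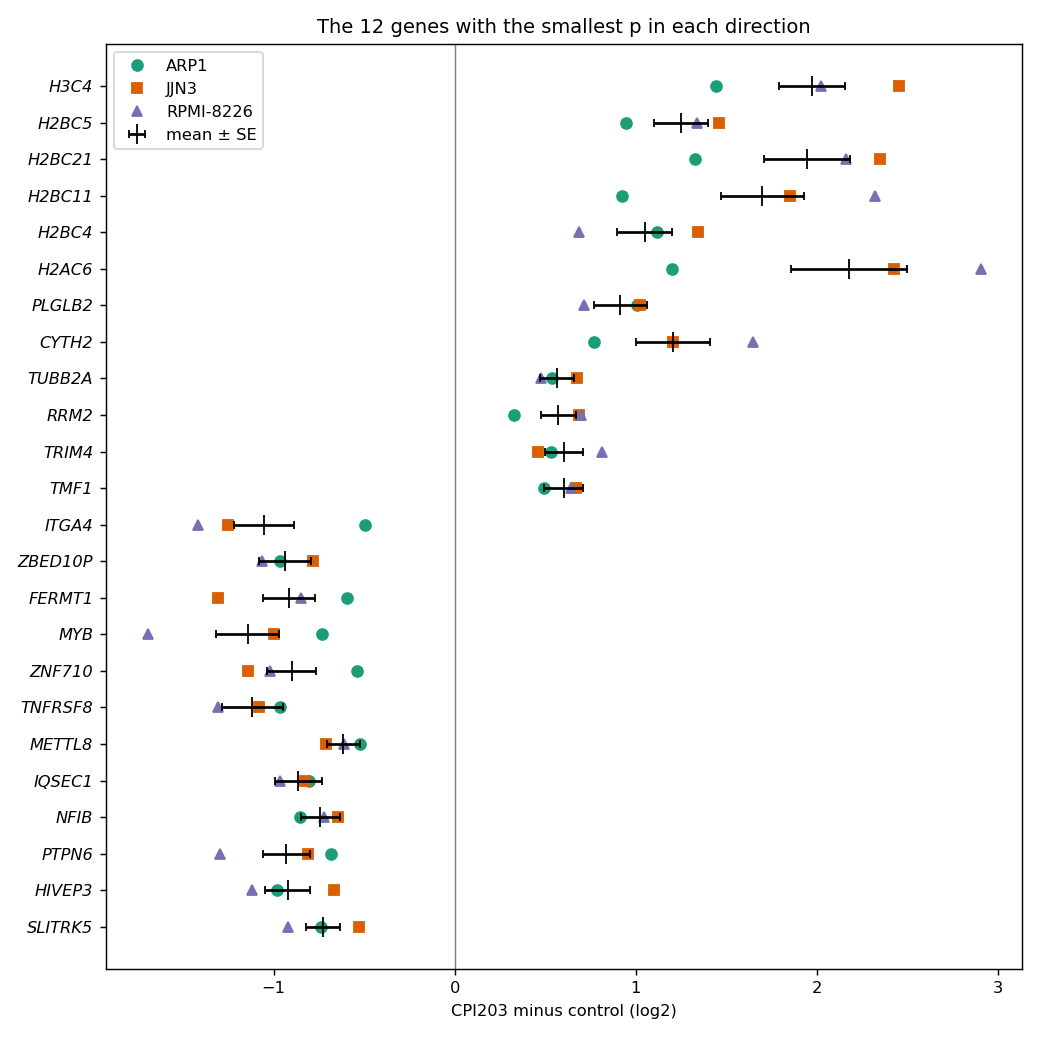
CPI203 minus control (log2) for the 12 genes with the smallest p among those higher in all 3 lines (top) and the 12 among those lower in all 3 lines (bottom). Coloured points are the lines and black bars the mean ± SE, n = 3. The histone genes H3C4, H2BC5, H2BC21, H2BC11, H2BC4 and H2AC6 head the plot, and ARP1 is nearest to 0 for 16 of the 24 genes.

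Immediate early and AP-1 genes, which cells switch on within minutes of growth or stress signals, were higher as a group in JJN3 and RPMI-8226. Of 24 tested, 13 were higher and 0 lower at an unadjusted p under 0.05, with a median difference of 0.49. By line the median was 0.05 for ARP1, 0.66 for JJN3 and 0.45 for RPMI-8226. The count higher was 6 without the JJN3 control array and was 7 without the JJN3 CPI203 array or either RPMI-8226 array. JUND stood at 7.67, 10.12 and 9.93 with CPI203 in ARP1, JJN3 and RPMI-8226, against 7.15, 7.76 and 7.32 in control (1.83 ± 0.41, adjusted p = 0.103). FOS stood at 6.11, 7.36 and 6.69, against 5.82, 5.51 and 5.47 in control (1.12 ± 0.27, adjusted p = 0.108), so that all its CPI203 arrays lay above its control arrays. JUN stood at 1.12 ± 0.27 (0.59, 1.52 and 1.27) and EGR1, a zinc finger factor, at 0.82 ± 0.19 (0.34, 1.08 and 1.05). The other tested JUN probe sets ran from -0.39 to 0.26 for ARP1 and were all higher in JJN3 and RPMI-8226. ATF3, a stress-induced factor, was higher in JJN3 and RPMI-8226 (1.69 and 1.71) and not in ARP1 (-0.16). Among genes of AU-rich mRNA decay, ZFP36 stood at 1.36 ± 0.32 (0.26, 1.78 and 2.04) and its paralogue ZFP36L1 at -0.64 ± 0.16 (-0.62, -0.43 and -0.86). TOB1, an antiproliferative gene that recruits deadenylases, stood at 1.17 ± 0.30.

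Stress genes of several kinds showed more members higher than lower. In the unfolded protein and integrated stress response list, 7 of 20 were higher and 0 lower at an unadjusted p under 0.05 (median 0.22). HERPUD1, of endoplasmic reticulum degradation, stood at 0.64 ± 0.12 (adjusted p = 0.0829), and SESN2, a brake on mTORC1, at 0.59 ± 0.11 (adjusted p = 0.0806) with 0.50, 0.55 and 0.72 in ARP1, JJN3 and RPMI-8226. HSPA5, the main chaperone of that compartment, was not among the 7. Of 13 heat shock genes 4 were higher and 0 lower, among them HSPA1B at 0.97 ± 0.25 and the co-chaperone BAG3 at 0.74 ± 0.17, and 2 were higher without the JJN3 control array or either RPMI-8226 array. Of 8 metallothionein and zinc genes 4 were higher and 0 lower, and 2 were higher without the JJN3 CPI203 array or either RPMI-8226 array. MT1X, a metal-binding protein gene, stood at 9.42, 11.12 and 11.57 with CPI203, against 8.53, 9.18 and 9.02 in control, a mean of 1.80 ± 0.32 (3.47-fold, adjusted p = 0.0806). MT2A stood at 0.44 ± 0.18, and MTF1, the zinc-sensing factor, at 0.35.

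MYC stood at 12.03, 11.61 and 10.74 with CPI203 in ARP1, JJN3 and RPMI-8226, against 12.35, 11.97 and 11.79 in control. It was lower in each line, by -0.32, -0.36 and -1.05, and the levels of the groups overlapped because the control level itself differed between lines. The mean difference was -0.58 ± 0.15 (adjusted p = 0.115, 95% interval -0.90 to -0.25). In the list of 12 genes of the MYC network, 2 were higher and 2 lower at an unadjusted p under 0.05, with a median of 0.13. Without either JJN3 array 1 was higher and 1 lower, without the RPMI-8226 control array 1 was higher, and without the ARP1 control array 4 were. The lower genes were MYC itself and MLX, a partner of the glucose-sensing Mondo factors, at -0.23 ± 0.08 (-0.23, -0.32 and -0.16, adjusted p = 0.215). The higher ones were MXD1 and TXNIP. MXD1, which competes for MAX, stood at 0.90 ± 0.31, with 0.01 for ARP1, 1.45 for JJN3 and 1.24 for RPMI-8226. TXNIP, which limits glucose uptake, stood at 0.76 ± 0.22 (0.26, 0.72 and 1.30).

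Genes of ribosome production, many of them MYC targets in other cells, were the list with the largest shift downward. Of 29 tested, 18 were lower and 0 higher at an unadjusted p under 0.05, against a background of 9.19% lower. All 29 were lower on average, against 7944 of all 15173 genes tested. The median was -0.34, with -0.17 for ARP1, -0.34 for JJN3 and -0.49 for RPMI-8226, and 23 of the 29 were lower in all 3 lines. The count lower was 15 without the JJN3 control array, when the background share was 7.16%, and lay between 13 and 17 whichever array was left out. POLR1B, the second largest subunit of RNA polymerase I, stood at 9.48, 9.22 and 9.18 with CPI203, against 9.91, 10.01 and 10.08 in control, with no overlap of the groups. Its mean was -0.71 ± 0.11 (adjusted p = 0.0785), and its 6 probe sets ran from -0.77 to -0.58. UBTF, the upstream binding factor of ribosomal DNA, stood at -0.69 ± 0.16 (-0.51, -0.30 and -1.25). RRS1, of large subunit assembly, stood at -0.78 ± 0.17, PPAN at -0.63 ± 0.13 and DKC1, the pseudouridine synthase dyskerin, at -0.56 ± 0.12 (adjusted p = 0.0956). The ribosomal proteins themselves stood otherwise. Of 21 tested, 0 were higher and 0 lower at an unadjusted p under 0.05, with means between -0.05 and 0.03. These are abundant transcripts near the top of the array scale, with a median level of 13.8 in each group. Of 20 metabolic MYC target genes 7 were lower and 0 higher (median -0.13), among them CTPS1, of CTP synthesis, at -0.43 ± 0.09 (adjusted p = 0.0956) and the glycolytic gene HK2 at -0.73 ± 0.17. Without the JJN3 control array, or the RPMI-8226 CPI203 array, 4 were lower.

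IKZF1, which encodes Ikaros, stood at 9.64, 8.07 and 8.76 with CPI203 in ARP1, JJN3 and RPMI-8226, against 9.94, 9.80 and 10.25 in control. All CPI203 arrays lay below all control arrays. The mean difference was -1.18 ± 0.26 (adjusted p = 0.0998), with -0.30 for ARP1, -1.73 for JJN3 and -1.49 for RPMI-8226, and its 3 probe sets gave -1.18 to -0.58. IKZF3, which encodes Aiolos, stood at 8.81, 7.57 and 7.50, against 9.01, 8.47 and 8.49 in control (-0.70 ± 0.20, adjusted p = 0.142). These are transcripts, and no array measured the proteins that lenalidomide sends for degradation. Of 14 tested genes of the Ikaros family, cereblon ligase and its substrates, 6 were lower and 0 higher at an unadjusted p under 0.05. The count was 3 without the JJN3 CPI203 or the RPMI-8226 control array. ZNF692, a zinc finger substrate of the drug-bound ligase, stood at -1.11 ± 0.27 (-0.13, -1.33 and -1.87). CRBN, the substrate receptor, stood at 0.42 ± 0.21 (adjusted p = 0.366), lower in ARP1 and higher in the other lines on the probe set used.

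Of 20 B cell and plasma cell transcription factor genes, 4 were lower and 0 higher at an unadjusted p under 0.05, and 14 were lower and 6 higher on average. Over all 15173 genes tested, 7944 were lower and 7229 higher on average. Without the JJN3 CPI203 array 1 was lower (5.0%, when 5.71% of all genes tested were), and without the ARP1 control array 2 were. MEF2C stood at -0.72 ± 0.19 (-0.27, -0.99 and -0.90). POU2AF1, the coactivator of octamer factors, stood at -0.48 ± 0.16 and was alike in the 3 lines (-0.49, -0.47 and -0.48). IRF4, on which myeloma cells depend, stood at 0.33 ± 0.17 (adjusted p = 0.382), with -0.09 for ARP1, 0.49 for JJN3 and 0.60 for RPMI-8226. Of 20 genes of B cell receptor signalling 5 were lower and 0 higher, with 3 lower without the JJN3 control array and 2 without either RPMI-8226 array. PTPN6, the phosphatase SHP-1 that restrains the receptor, stood at 9.43, 8.62 and 8.34 with CPI203, against 10.12, 9.43 and 9.64 in control. Its mean was -0.93 ± 0.13 (adjusted p = 0.0721), and its groups met at 9.43, the level of ARP1 with CPI203 and of JJN3 in control. INPP5D, the lipid phosphatase SHIP1 and another brake on the receptor, stood at -0.64 ± 0.13 (adjusted p = 0.0956). TNFRSF17, the B cell maturation antigen, stood at -0.22 for ARP1, -1.46 for JJN3 and -3.29 for RPMI-8226 (-1.65 ± 0.62, adjusted p = 0.231). JCHAIN, of antibody assembly, stood at -0.80 ± 0.31, of which the JJN3 pair, with 7.71 with CPI203 and 9.63 in control, gave most.

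**Figure D3:**
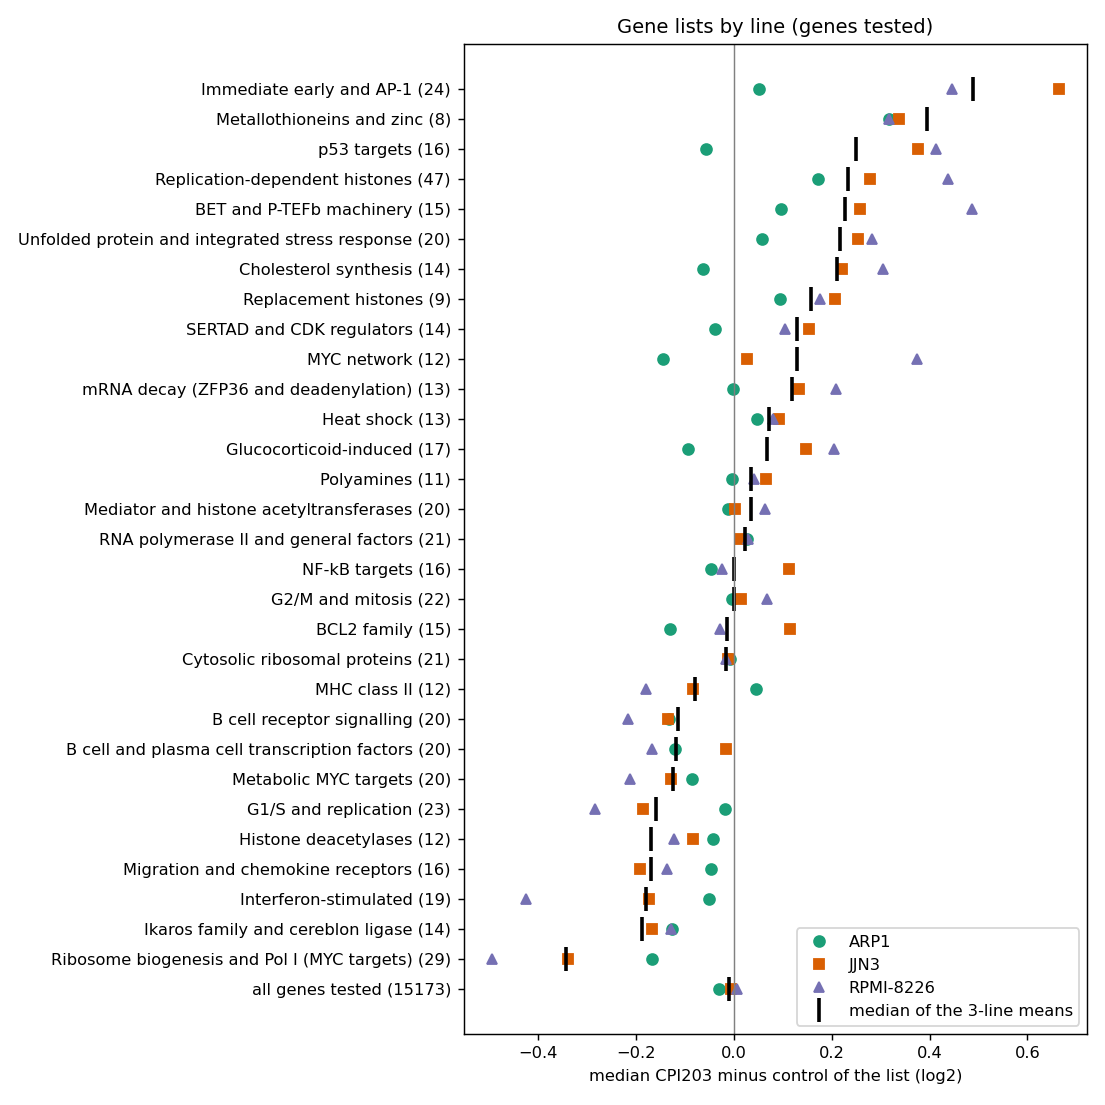
Median CPI203 minus control (log2) of each gene list, by line (coloured points) and for the means over the 3 lines (black bars), with the number of genes tested in parentheses and all 15173 genes at the bottom. Ribosome biogenesis genes lie furthest to the left, at a median of -0.34, and immediate early genes furthest to the right, at 0.49, with ARP1 at 0.05.

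The 12 genes with the smallest p among those lower in all 3 lines included both even and uneven sizes of change between the lines. Uneven changes add to the residual behind p, along with the variation of the other treatments. SLITRK5, a neuronal transmembrane gene, stood at -0.74, -0.53 and -0.92 in ARP1, JJN3 and RPMI-8226 (-0.73 ± 0.10, adjusted p = 0.065). HIVEP3, a zinc finger factor, stood at -0.98, -0.66 and -1.12 (-0.92 ± 0.12, adjusted p = 0.065). In ARP1 its 4 tested probe sets ran from -1.13 to 1.17. NFIB, a nuclear factor I gene, stood at -0.85, -0.65 and -0.72, and IQSEC1, an exchange factor of ARF6, at -0.80, -0.82 and -0.96. The adjusted p was 0.0721 for both, as for MYB and TNFRSF8. The even change of NFIB held only for the probe set used, at low levels in ARP1 (4.92 with CPI203, 5.77 in control). Its other tested probe sets gave -0.03 to 0.33 for ARP1 and -1.17 to -0.57 for JJN3. MYB, a factor of blood progenitors, stood at 7.66, 7.73 and 7.22 with CPI203, against 8.39, 8.73 and 8.91 in control (-1.14 ± 0.17), and its groups did not overlap. Its difference was -0.73 for ARP1 and -1.70 for RPMI-8226. TNFRSF8, the surface receptor CD30, stood at 7.65, 9.12 and 9.16, against 8.62, 10.20 and 10.46 in control (-1.12 ± 0.17), and both of its probe sets gave -1.12. ITGA4, the α4 integrin by which lymphocytes and myeloma cells hold on to stroma, stood at -1.05 ± 0.17 (-0.50, -1.25 and -1.42, adjusted p = 0.0763). FERMT1, an integrin activator, stood at -0.92 ± 0.14 (-0.59, -1.31 and -0.85, adjusted p = 0.076), though 1 of its 4 probe sets gave 0.08.

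The largest differences downward were greater in JJN3 and RPMI-8226. RXRA, the retinoid X receptor, stood at 7.06, 6.86 and 5.64 with CPI203, against 7.62, 8.96 and 7.95 in control, with no overlap of the groups and a mean of -1.66 ± 0.41 (adjusted p = 0.112). Its other tested probe set gave a mean of -0.59, with 0.30 for ARP1. NRROS, a gene of myeloid and lymphoid redox control, stood at -0.65, -1.72 and -1.90 in ARP1, JJN3 and RPMI-8226. SH3BP2, an adaptor of immune receptor signalling, stood at -0.81, -2.14 and -1.18, and RIPOR2, an inhibitor of RhoA, at -0.95, -1.32 and -1.78. These sizes held only for the probe sets used. The other tested probe sets gave means of -0.42 to -0.30 for SH3BP2 and -0.45 to -0.03 for RIPOR2. NFIC, another nuclear factor I gene, stood at -1.24 ± 0.21 (adjusted p = 0.0785), with 2 of its 10 probe sets of the opposite sign. IL15RA, the α chain that presents interleukin 15, stood at -0.45, -1.65 and -1.60, and its other tested probe sets gave means of -0.75 and -0.44.

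Survival and cell cycle genes were split. BCL2L1, which encodes the survival protein BCL-XL, stood at -0.74 ± 0.17 (-0.24, -1.07 and -0.92), and MCL1, another survival gene of myeloma cells, at 0.50 ± 0.14 (0.18, 0.66 and 0.65). No other of the 15 BCL2 family genes had an unadjusted p under 0.05. In the G1/S and replication list 6 of 23 genes were lower and 2 higher at an unadjusted p under 0.05, with 1 lower without the RPMI-8226 control array, 2 without the JJN3 and 3 without the RPMI-8226 CPI203 array. The count higher was 1 without any array but that of the ARP1 control. The helicase subunit MCM2 stood at -0.43 ± 0.14 and the polymerase subunit POLE2 at -0.66 ± 0.19. RRM2, of deoxynucleotide synthesis, stood at 0.57 ± 0.10 (0.33, 0.69 and 0.70, adjusted p = 0.0801) against the direction of its list. CDKN2D, an inhibitor of CDK4 and CDK6, stood at 0.68 ± 0.16. Of 19 interferon-stimulated genes tested 5 were lower and IRF7 was higher, with 2 lower without the RPMI-8226 control array and 8 without the ARP1 control array. Among them stood MX2 at -0.56 ± 0.18 and IFI44 at -0.50 ± 0.14, although 2 of 5 IFI44 probe sets had the opposite sign. Of 12 MHC class II genes 0 were higher and 0 lower at an unadjusted p under 0.05, with 2 lower without the ARP1 control array and 1 without the ARP1 CPI203 array. In cholesterol synthesis INSIG1, a sterol-sensing retention protein, stood at 0.80 ± 0.16 and IDI1 at 0.74 ± 0.17, the 2 of 14 genes with an unadjusted p under 0.05, of which there were 5 without the ARP1 control array and 4 without the ARP1 CPI203 array.

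Differences in ARP1 were smaller than in the other lines for most genes that differed. The spread of the differences over all genes (SD) was 0.247 for ARP1, 0.374 for JJN3 and 0.418 for RPMI-8226. At least 2-fold higher were 12 genes for ARP1 (0.0791%), 158 for JJN3 (1.04%) and 233 for RPMI-8226 (1.54%), and at least 2-fold lower were 26 (0.171%), 167 (1.1%) and 258 (1.7%). Each of these counts comes from 1 pair of arrays and has no replicate check. Across genes the differences correlated at Pearson r of 0.602 between JJN3 and RPMI-8226, 0.202 between ARP1 and JJN3 and 0.203 between ARP1 and RPMI-8226. Among the 941 genes with an unadjusted p under 0.05 and higher in all 3 lines, ARP1 gave the smallest difference for 752 (79.9%), and among the 1290 lower in all 3 lines for 892 (69.1%), against 46.1% of all genes tested. The moderated F test of a line difference in the CPI203 effect, which had 2 residual degrees of freedom, called 0 genes at an adjusted p under 0.05, while 2279 of 15173 had an unadjusted p under 0.05. SERTAD1, JUND, MT1X, DHRS2 and IRF7 each had an adjusted p of 0.059 for the line difference, and H3C4 one of 0.333.

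The same 3 lines gave another reading of CPI203 on LenDex. Its differences come from the other 6 arrays, while its SE and p come from the same 12-array model. Combo against LenDex called 0 genes in limma at an adjusted p under 0.05, while 14.9% had an unadjusted p under 0.05 (2264 of 15173), 1165 of them higher (7.68%) and 1099 lower (7.24%). Of the 1061 genes higher with CPI203 alone at an unadjusted p under 0.05, 990 were higher on LenDex too (93.3%), and of the 1395 lower ones 1248 were lower (89.5%). Over all genes tested the shares were 69.6% of those higher on average and 66.2% of those lower. H3C4 stood at 1.57 ± 0.18 on LenDex, H2BC5 at 1.20 ± 0.15, H2AC6 at 1.65 ± 0.32 and SERTAD1 at 1.89 ± 0.58. MYC stood at -0.44 ± 0.15, IKZF1 at -0.90 ± 0.26, IKZF3 at -0.95 ± 0.20 and POLR1B at -0.62 ± 0.11. The difference between both readings was tested as an interaction, which called 0 genes at an adjusted p under 0.05 and gave an unadjusted p under 0.05 for 3.11% (472 of 15173). HIVEP3, at -0.92 ± 0.12 alone, stood at -0.04 ± 0.12 on LenDex, with an unadjusted interaction p of 0.000543 in limma and an adjusted p of 1. In each line the differences alone and on LenDex correlated across genes at Pearson r of 0.185 for ARP1, 0.601 for JJN3 and 0.624 for RPMI-8226.

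**Figure D4:**
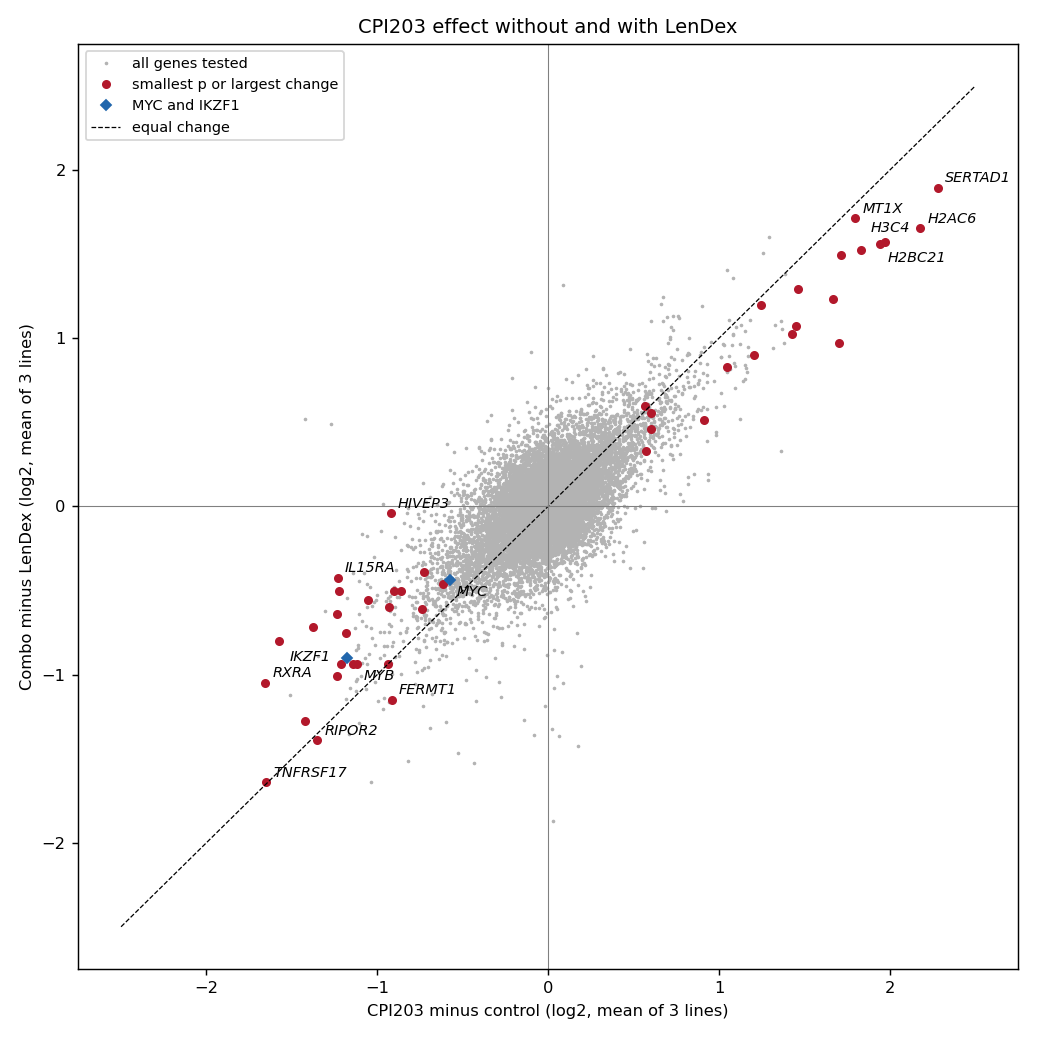
Mean difference over the 3 lines for each of 15173 genes, CPI203 minus control on the horizontal axis and Combo minus LenDex on the vertical axis (both log2), with the genes of the smallest p or the largest change in red, MYC and IKZF1 as blue diamonds, and a dashed line where both are equal. The genes in red lie in the same quadrant on both axes, with HIVEP3 close to 0 on LenDex, at -0.04.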

How the data were processed

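The deposited values are log2 levels per probe set, which the submitters' processing notes credit to RMA in version 1.1 of Affymetrix Expression Console. The range of the values shows the log2 scale. No source says if the 12 arrays went through RMA as 1 set. The platform annotation gave 1 symbol to 45253 of 49386 probe sets, several to 1327 and none to 2713, and 93 were controls. The annotation can be old, and 45172 probe sets matched a RefSeq gene identifier, through which symbols were updated. Each gene was read by its brightest single-symbol probe set on average over the 12 arrays. Of 210 named genes 147 had several tested probe sets, which had 1 sign in 111.

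The treatment label set the groups. The model, fitted gene by gene with limma 3.58.1 in R 4.3.3, had line and treatment as terms over all 12 arrays, 6 residual degrees of freedom and empirical Bayes moderation. It was tested on simulated data. The line was a block because samples that share a number share a line, and their deviations from the group means correlated within a line at 0.82 to 0.94. Nothing repeats a line within a treatment. The residual behind the p-values therefore mixes culture-to-culture error with differences between lines in the treatment effects, and the design cannot separate them. The line difference was a moderated F test of line by CPI203 terms in a model that also held line by lenalidomide-dexamethasone terms and the interaction of the drugs.

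Named genes were those called, the 12 smallest p and the 12 largest differences in each direction among genes alike in sign in the 3 lines, a panel of 18 genes, and up to 5 members with the smallest p in each of 37 lists. AFF1, AFF4, H2BC12, H2AC7 and the lineage genes outside the lists were added with their values known. The comparison, members and lists were chosen with earlier results of these data known. Unadjusted counts are descriptions. Alternatives were other filters, probe set rules, normalizations and variance models, no block, averaged JJN3 and RPMI-8226 arrays, and each line or array left out.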

Additional observations from a re-analysis of the deposited data

Results flagged for a closer look

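The 2 genes flagged here, CRBN and CDKN1A, moved one way in ARP1 and the other way in JJN3 and RPMI-8226 with CPI203. They are not the only ones, and ATF3 and IRF4 above were split alike. A split in sign was common, since 17.8% of genes tested were higher and 21.6% lower in all 3 lines. CRBN, the substrate receptor of the ligase that lenalidomide binds, stood at -0.28 for ARP1, 0.90 for JJN3 and 0.63 for RPMI-8226 with CPI203 alone, and at -0.29, 0.18 and 0.47 on LenDex. Each line had 1 array per treatment, and the moderated F test in limma gave an adjusted p of 0.219 for a line difference. Of 3 tested CRBN probe sets, 1 was higher in every line, at 0.14 for ARP1, 0.49 for JJN3 and 0.28 for RPMI-8226. Another stood at -0.16, 0.09 and 0.51. CDKN1A, the cyclin-dependent kinase inhibitor p21, stood at -1.81 for ARP1, 0.82 for JJN3 and 1.21 for RPMI-8226 alone, and at -0.39, 0.74 and 0.76 on LenDex (adjusted p = 0.172 for a line difference). Its other tested probe set gave a mean of 0.74, against 0.08 for the one used. That other probe set was higher in every line, at 0.24 for ARP1, 1.14 for JJN3 and 0.85 for RPMI-8226. The opposite direction in ARP1 thus depended on the probe set for both genes. Groups of 3 arrays were too small for a check of single outlying arrays.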

How the results depend on the processing

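CPI203 against control called 1 gene. The count was 0 in a fit of the 6 arrays alone and 0 after averaging JJN3 and RPMI-8226, which leave fewer arrays. It was 6 probe sets when each was tested singly, 4 genes with the median of a gene's probe sets, 4 after cyclic loess, 3 with arrays centred on their medians and 317 once the fit allowed a variance trend and robust weights, with 106 higher (0.699%) and 211 lower (1.39%), and the cause was not tested. With no replicate block the count was 0 (H3C4 adjusted p = 1), so the call needed the block for line. The block alone did not give the call, since the fit of the 6 arrays kept it and called 0 genes. Leaving out a line or an array gave 0 to 1015, with 1015 without ARP1 (502 higher, 3.31%, and 513 lower, 3.38%). H3C4 had a difference of 1.73 to 2.24 and an adjusted p of 0.000416 to 1 over all alternatives. Combo against LenDex called 0 genes, against 4 with a mean log2 level of 6 or more, 2 with probe sets tested singly, 2 with the median of probe sets, 2 after cyclic loess, 61 with a variance trend and robust fit, and 0 to 715 with a line or array left out. The interaction called 0 genes throughout. The line difference called 0 genes, against 31 with no level filter, 53 with the median of probe sets, 1039 with a variance trend and robust fit and 2 with arrays centred, and 0 with any line or array left out. Among values of single named genes, 898 of 956 under these settings and 665 of 864 with a line or array left out kept their direction and side of the threshold, and CDKN1A, at 0.08, changed sign. It stood at -0.40 with JJN3 and RPMI-8226 averaged and between -0.49 and 1.02 with a line or array left out, above 0 only where an ARP1 array was missing. List medians moved by less than the spread between lines in 344 of 366 settings and in 277 of 333 with a line or array left out. Marker lists with no gene left under a filter gave no value. Array signal near background limits the reading of genes at log2 levels under 5, which were mostly not tested.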
